A study of Mus musculus with 18 samples.

Results

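The 10 genes described here are regulators of fat cell formation and genes of lipid handling: the transcription factors Pparg, Cebpa, Cebpb, Cebpd and Zfp423, the lipase gene Lpl, the fatty acid carriers Fabp4 and Cd36, the hormone gene Adipoq and the lipid droplet gene Plin2. They were chosen by name, and every probe that the array's annotation maps to them was read, which gave 15 probes among the 45121 on the array. Of these, 9 probes of 7 genes were detected on at least 2 of the 18 arrays and were tested. The 6 others were the only probes of Cd36, Fabp4 and Zfp423 and a further probe each of Lpl and Cebpd.

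The cells were mouse embryonic fibroblasts from E10.0 embryos of BL6/129/Sv background, immortalised by the 3T3 protocol, either wildtype or jnk1-/-jnk2-/- (called KO here), so lacking the stress kinases JNK1 and JNK2. Both genotypes were kept on culture inserts in one medium, which held insulin, hydrocortisone, cholera toxin and epidermal growth factor, with no keratinocytes at day 0 and in transwell co-culture with differentiating human epidermal keratinocytes at days 2, 4 and 6. Fibroblast inserts were renewed every second day, so the day is the age of the keratinocyte culture. Each genotype has a single array for day 0, 2 arrays each for days 2 and 4, and 4 for day 6, every one made from RNA of 1, 2 or 3 pooled inserts. The labels name no separate lines within a genotype, so p-values measure the spread between inserts, and a difference between genotypes cannot be told apart from a difference between the immortalised cultures.

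Fat cells arise from fibroblast-like precursors through a cascade of transcription factors. Cebpb and Cebpd, the early C/EBP factors, respond to hormones and cyclic AMP and activate Pparg, a nuclear receptor for fatty acids, and Cebpa, and these last factors keep each other active and turn on the genes of the mature fat cell. Zfp423 is known to commit precursors to that fate and to favour Pparg expression. Lipoprotein lipase (Lpl) releases fatty acids from lipoproteins, Cd36 takes them up, Fabp4 carries them inside the cell, Plin2 coats lipid droplets in many cell types, and adiponectin (Adipoq) is a hormone that fat cells secrete. Insulin, glucocorticoids and agents that raise cyclic AMP, the class to which cholera toxin belongs, are classical components of cocktails that induce fat cell differentiation.

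The promoters of Pparg, Cebpb and Adipoq are shown because these 3 genes gave the main patterns below. Each run holds 300 bases of the GRCm38.p6 assembly from RefSeq, 250 before and 50 from an annotated start site, 5′ to 3′, and capitals mark matches on either strand to the C/EBP motif TTGCNNAA, the TATA box TATAAA or the CCAAT box CCAAT. RefSeq tables held such a window for 7 of the 10 genes. Pparg has 3 annotated starts, all on the plus strand, of which the most upstream and the most downstream are printed.
Pparg, upstream start, chr6:115360894-115361193: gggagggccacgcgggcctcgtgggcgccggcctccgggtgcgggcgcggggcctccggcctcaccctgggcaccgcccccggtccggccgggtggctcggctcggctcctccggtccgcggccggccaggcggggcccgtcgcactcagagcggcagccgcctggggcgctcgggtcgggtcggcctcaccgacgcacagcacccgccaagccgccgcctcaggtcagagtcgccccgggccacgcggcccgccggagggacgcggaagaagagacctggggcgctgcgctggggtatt
Pparg, downstream start, chr6:115421816-115422115: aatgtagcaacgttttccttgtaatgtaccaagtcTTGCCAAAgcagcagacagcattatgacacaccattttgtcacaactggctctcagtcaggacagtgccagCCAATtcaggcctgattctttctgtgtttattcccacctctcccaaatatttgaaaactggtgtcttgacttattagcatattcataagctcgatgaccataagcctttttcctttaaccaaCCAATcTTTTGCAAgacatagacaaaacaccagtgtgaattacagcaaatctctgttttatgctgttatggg
Cebpb, plus strand, chr2:167688665-167688964: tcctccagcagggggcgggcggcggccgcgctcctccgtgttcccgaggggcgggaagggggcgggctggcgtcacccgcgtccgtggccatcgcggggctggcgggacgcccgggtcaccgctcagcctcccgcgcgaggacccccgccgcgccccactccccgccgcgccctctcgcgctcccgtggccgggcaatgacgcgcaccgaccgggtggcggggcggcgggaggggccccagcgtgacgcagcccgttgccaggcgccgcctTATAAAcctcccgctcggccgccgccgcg
Adipoq, plus strand, chr16:23146286-23146585: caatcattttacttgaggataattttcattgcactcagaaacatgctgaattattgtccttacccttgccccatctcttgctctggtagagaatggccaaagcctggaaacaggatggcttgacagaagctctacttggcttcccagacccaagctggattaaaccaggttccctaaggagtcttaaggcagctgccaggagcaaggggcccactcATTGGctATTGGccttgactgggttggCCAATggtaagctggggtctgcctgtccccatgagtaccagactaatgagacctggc

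The upstream Pparg window and the Cebpb window were rich in CpG, with 44 and 50 of these dinucleotides against a median of 7 over 32851 such windows, while the downstream Pparg window held 2 and the Adipoq window 0. The C/EBP motif stood in the downstream Pparg window, with its first base at -215 and at -16 from the start, and in neither of the other Pparg windows. Among the other genes with a window, only Zfp423 held it, at -131 and 23 in a window not printed here. Over all windows, 10.8% held that motif. The CCAAT box stood at -144 and -22 in the downstream Pparg window and at -34, -27 and -7 in that of Adipoq. In windows not printed here it stood at -83 in the middle Pparg window, -195 in Cd36 and -73 in Plin2. Of all windows, 37.4% held one. The capitals in the Cebpb window mark a TATA box match at 22, after the start (13.6% of all windows held one). Unprinted windows held a TATA box at -29 (middle Pparg start) and at -30 (Cebpa). No matches overlapped each other in the printed windows. The AP-1 motif TGANTCA, bound by the Jun family that JNK phosphorylates, had no match in any window of the 7 genes (7.81% of all windows held it), and nor did the cyclic AMP element TGACGTCA (1.79%). A match is a match of letters only, and the absence of one says nothing of the factor.

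As a check of the labels, the leading probe of Mapk9 (JNK2) ranged from 10.07 to 10.49 in wildtype and from 4.51 to 5.60 in KO, in normalized log2 signal, the scale of every level below. That of Mapk8 (JNK1) ranged from 5.44 to 6.47 in wildtype and from 5.71 to 6.36 in KO, and the deleted part of the gene is not given in the labels. Mean bead intensity per array was 392 to 482 on 12 arrays and 581 to 653 on the other 6, which are day 6 replicates 2, 3 and 4 of both genotypes and also differ in how their detection p-values were computed. They are called the second processing set. Fibroblast markers were detected in both genotypes, with 10 of 10 detected on at least 2 wildtype arrays and 8 of 10 on at least 2 KO arrays. Of the other cell types' lists, macrophage genes were detected on at least 2 arrays for 4 of 7 in wildtype and 2 of 7 in KO, with Lyz2 and Itgam on none and summed linear signals of 178 to 234 and 145 to 197. Mrc1, a receptor in that list, was detected on all 9 wildtype arrays (5.35 to 6.03) and on 0 KO arrays (4.15 to 4.68). Endothelial genes numbered 3 of 7 in each genotype, with Pecam1 and Emcn on none, and their sums did not overlap, at 184 to 289 in wildtype and 502 to 814 in KO. Flt1, a receptor in that list, read 5.42 to 7.03 in wildtype and 8.45 to 9.41 in KO. It was the only endothelial gene listed whose levels did not overlap between the genotypes. Cdh5, Kdr, Tek and Tie1 were detected on 3, 2, 1 and 1 wildtype arrays and on 2, 2, 1 and 0 KO arrays. Keratinocyte genes numbered 3 of 8 and 4 of 8, with Lor and Dsg3 on none and overlapping sums of 769 to 1084 and 612 to 1050. Krt10 was detected on all 18 arrays, and Ivl on all 9 wildtype arrays (6.54 to 8.04) and 1 KO array (4.22 to 5.15). Krt14, Krt1 and Trp63 went the other way, detected on 0, 0 and 2 wildtype arrays and on 3, 4 and 6 KO arrays, at 6.26 or below. The part of these markers in the member differences was not tested.

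Pparg was the member with the largest difference at day 6. Its leading probe, the one with the highest mean signal (ILMN_1221060), read 9.50, 10.78, 10.65 and 10.27 on the 4 wildtype arrays of day 6 and 6.78, 5.72, 5.13 and 5.77 on the 4 KO arrays. Every wildtype array lay above every KO array, and the closest pair was replicate 1 of both genotypes, the only day 6 arrays of the first processing set. Pparg was thus 21.8-fold lower in KO, a log2 difference of -4.45 ± 0.29 (KO minus wildtype ± standard error, adjusted p = 3.8e-10). Within the first set the difference was -2.71 (adjusted p = 0.00018), from 1 array per genotype assumed to vary like the other groups, and within the second it was -5.03 (adjusted p = 5.36e-07). With the authors' deposited log2 values, which keep the background, the difference was -2.99 at day 6.

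The same gap was there before and throughout co-culture. At day 0 the single arrays read 9.58 in wildtype and 5.52 in KO. At day 2 wildtype read 9.89 and 9.98 and KO 5.10 and 5.87, a difference of -4.45 ± 0.42 (adjusted p = 1.41e-07). At day 4 both wildtype arrays read 9.86 and the KO arrays 6.54 and 6.21, a difference of -3.48 ± 0.42 (adjusted p = 3.74e-06). The deposited log2 values gave -2.79 at day 2 and -2.41 at day 4. The 9 wildtype arrays spanned 9.50 to 10.78 and the 9 KO arrays 5.10 to 6.78, so the genotypes did not overlap on any day. The probe was detected on all 18 arrays, so the KO signal was low but measurable. In bulk RNA of this kind, fewer cells with the transcript and less transcript per cell cannot be told apart.

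The 2 further Pparg probes were dimmer and gave smaller differences of the same sign at day 6. ILMN_1221594 read 6.13, 7.46, 7.54 and 6.97 in wildtype and was detected on 0 of the 9 KO arrays, where it lay between 4.17 and 4.59. At day 6 its KO level was at least 5.53-fold lower (adjusted p = 7.92e-08). The fold was at least 2.18 at day 4 (adjusted p = 0.00441) and at least 2.84 at day 2 (adjusted p = 0.00137). For these bounds, a KO value below the dimmest detected signal of its array was raised to that signal. With the deposited log2 values the differences were -0.97, -0.46 and -0.53, and the day 4 call was lost (adjusted p = 0.0531). ILMN_1221893 was detected on 5 wildtype arrays and 1 KO array and its day 6 level in KO was at least 1.7-fold lower (adjusted p = 0.0091). That probe did not pass the threshold at day 4 (-0.27 ± 0.38) or day 2 (-0.30 ± 0.38), and at day 0 it was detected in KO (5.39) and not in wildtype (4.78).

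**Figure D1:**
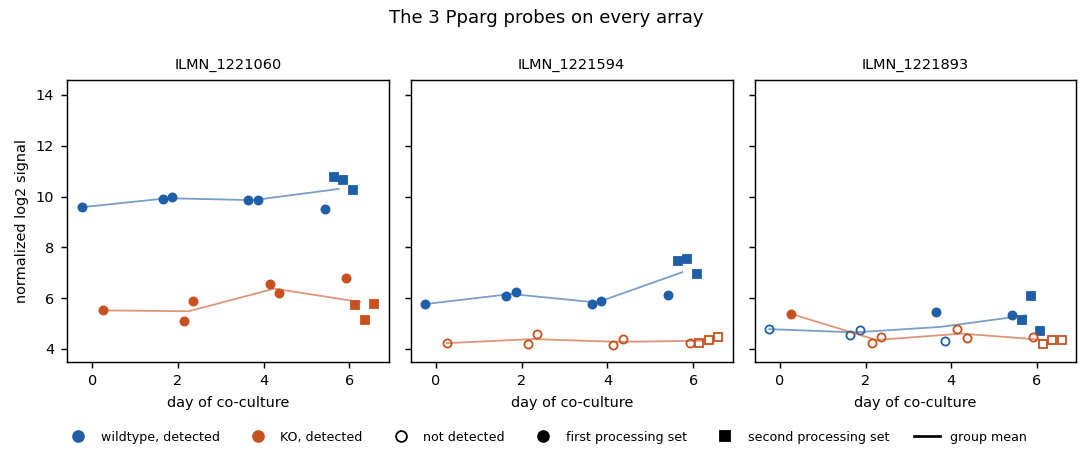
Normalized log2 signal (vertical axis) of the 3 Pparg probes on each of the 18 arrays against the day of co-culture (horizontal axis). Points are single arrays, open where the probe was not detected, squares in the second processing set, and lines join group means. The leading probe lies between 9.50 and 10.78 in wildtype and between 5.10 and 6.78 in KO, and ILMN_1221594 is open on all 9 KO arrays.

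Cebpa, which normally works beside Pparg in fat cells, was close to the background in both genotypes. Its probe lay between 4.17 and 5.22 in wildtype, with 2 detections (day 6 replicates 3 and 4), and between 4.2 and 4.85 in KO, with none. The day 6 difference was -0.28 ± 0.22 (adjusted p = 0.444). Zfp423 was detected on 0 of the 18 arrays by either of its 2 probes, with levels of 4.07 to 5.18.

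Cebpb gave a signal near the top of the array's range, whose highest value was 15.05. Day 0 set the genotypes apart in the opposite direction from later days: wildtype read 12.89 and KO 13.73. At day 2 wildtype read 13.93 and 13.90 and KO 13.49 and 13.46, so that KO was now the lower, by -0.44 ± 0.13 (adjusted p = 0.0164), a call that was lost in 6 of 14 alternative analyses, including each of the 4 that left out 1 day 2 array (adjusted p = 0.0724 to 0.102). At day 4 wildtype read 13.90 and 13.99 and KO 13.77 and 13.50, and at day 6 wildtype read 13.84, 14.09, 14.02 and 13.94 and KO 13.75, 13.77, 13.63 and 13.82. The genotypes did not overlap on either day, but the differences of -0.31 ± 0.13 (adjusted p = 0.109) and -0.23 ± 0.09 (adjusted p = 0.0621) did not pass the threshold. The day 6 value passed in 4 of 19 alternatives: with the processing set as a block (adjusted p = 0.0268), without wildtype replicate 1 (0.0283), with the deposited log2 values (0.0341) and with detection on at least 4 arrays required (0.0457).

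The response of Cebpb to co-culture differed between the genotypes. In wildtype, the mean of days 2 and 4 was 1.04 ± 0.14 above day 0, a 2.05-fold rise (adjusted p = 0.000165), and all 4 co-culture arrays lay above the day 0 array. In KO the change was -0.18 ± 0.14 (adjusted p = 0.532). The difference between these responses, KO minus wildtype, was -1.21 ± 0.20 (adjusted p = 0.00733). Each response rests on 1 day 0 array, assumed to vary like the other groups, and the difference lost its call with median scaling (adjusted p = 0.548) and without the intensity trend (adjusted p = 0.09).

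Cebpd, the other early C/EBP factor, was lower in KO at days 2 and 6. Wildtype read 9.33 at day 0, 9.64 and 9.65 at day 2, 9.57 and 9.40 at day 4, and 9.69, 9.59, 9.75 and 9.72 at day 6. KO read 8.28 at day 0, 8.79 and 8.74 at day 2, 9.07 and 8.96 at day 4, and 9.12, 9.06, 9.16 and 8.79 at day 6. The highest KO array (9.16) lay below the lowest wildtype array (9.33), and the KO levels were lowest at day 0. KO was 1.58-fold lower at day 6 (-0.66 ± 0.12, adjusted p = 0.000167) and 1.84-fold lower at day 2 (-0.88 ± 0.16, adjusted p = 0.000502). At day 4 the difference was -0.47 ± 0.16 (adjusted p = 0.0529), and it passed in 4 of 15 alternatives, with adjusted p from 0.00683 in the first processing set alone to 0.047. From day 0 to the mean of days 2 and 4, Cebpd rose by 0.61 ± 0.18 in KO (adjusted p = 0.0465), a call that was lost in 9 of 13 alternatives, with adjusted p up to 0.838, and every one of the 4 that left out an array lost it. Wildtype showed 0.23 ± 0.18 (adjusted p = 0.608), and the difference between these changes, 0.38 ± 0.26, did not pass (adjusted p = 0.674). The other Cebpd probe was detected on no array.

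Lpl was far lower in KO on every day of co-culture. Wildtype read 8.52 at day 0, 9.58 and 9.70 at day 2, 10.07 and 10.08 at day 4, and 9.33, 8.88, 10.81 and 9.58 at day 6. KO read 4.36 at day 0, which was not detected, 5.33 and 5.31 at day 2, 5.35 and 5.79 at day 4, and 5.91, 6.35, 5.67 and 5.76 at day 6. All wildtype arrays lay above all KO arrays on every day, and KO was detected on 7 of its 9 arrays. KO was 13.2-fold lower at day 6 (-3.73 ± 0.28, adjusted p = 2.96e-09), 22.7-fold lower at day 4 (-4.51 ± 0.40, adjusted p = 6.81e-08) and 20-fold lower at day 2 (-4.32 ± 0.40, adjusted p = 1.18e-07). Within the first and the second processing set, the day 6 difference was -3.42 and -3.83. With the deposited log2 values the differences were -2.41, -2.91 and -2.59 at days 6, 4 and 2. Both genotypes read higher in co-culture than at day 0, by 1.34 ± 0.45 in wildtype (adjusted p = 0.109) and 1.08 ± 0.45 in KO (adjusted p = 0.151), neither past the threshold. In a fit of the first processing set alone both passed (adjusted p = 0.00194 and 0.00441), and with the deposited log2 values the KO change was 0.27. The other Lpl probe, of another transcript record, was detected on no array.

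Adipoq was detected on 6 wildtype arrays, all of days 4 and 6, and on no KO array. Its wildtype levels were 5.06 at day 0 and 4.53 and 4.32 at day 2, none of them detected, then 6.89 and 6.74 at day 4 and 5.37, 5.02, 6.32 and 6.34 at day 6, all 6 detected. The KO arrays lay between 4.22 and 5.01. The day 4 wildtype arrays lay well above the KO arrays, and at day 6 the lowest wildtype array (5.02) lay just above the highest KO array (5.01). KO was at least 4.19-fold lower at day 4 (-2.30 ± 0.39, adjusted p = 0.00023) and at least 2.15-fold lower at day 6 (-1.27 ± 0.28, adjusted p = 0.00139), with -0.11 ± 0.39 at day 2 (adjusted p = 0.918). The day 6 difference was -0.37 within the first processing set (adjusted p = 0.645) and -1.58 within the second (adjusted p = 0.00632). With an offset of 50 the differences were -1.36 at day 4 and -0.67 at day 6, smaller than these bounds. With the deposited log2 values they were -0.77 at day 4 and -0.37 at day 6 (adjusted p = 0.00294). From day 2 to day 6 wildtype Adipoq differed by 1.40 ± 0.41, which did not pass over all probes (limma adjusted p = 0.454), and was 2.16 without wildtype day 6 replicate 1 and 0.37 with the deposited values.

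Plin2 was detected on all 18 arrays and was lower in KO at days 2, 4 and 6. Wildtype read 9.45 at day 0, 9.02 and 9.16 at day 2, 9.29 and 9.14 at day 4, and 9.50, 10.07, 10.09 and 10.14 at day 6. KO read 8.69 at day 0, 8.00 and 7.75 at day 2, 7.75 and 7.98 at day 4, and 7.97, 8.82, 8.85 and 8.60 at day 6. Within each day the genotypes did not overlap, and in both the 3 day 6 arrays of the second processing set lay above day 6 replicate 1. KO was 2.62-fold lower at day 6 (-1.39 ± 0.18, adjusted p = 5.86e-06), 2.55-fold lower at day 4 (-1.35 ± 0.26, adjusted p = 0.000746) and 2.31-fold lower at day 2 (-1.21 ± 0.26, adjusted p = 0.0019). The day 6 value was -1.54 within the first set and -1.34 within the second.

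The fatty acid carriers, each read by a single probe, gave signals close to the background in both genotypes. Cd36 was detected on 1 array, wildtype day 6 replicate 3, at 4.90, and lay between 4.13 and 4.5 on all others. Fabp4, among the most abundant transcripts of mature fat cells, was detected on no array, with levels between 4.13 and 5.11. These values describe the probes and neither bound the transcripts nor show their absence. The further probes of Lpl and Cebpd were also silent, beside probes of the same genes that were detected.

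**Figure D2:**
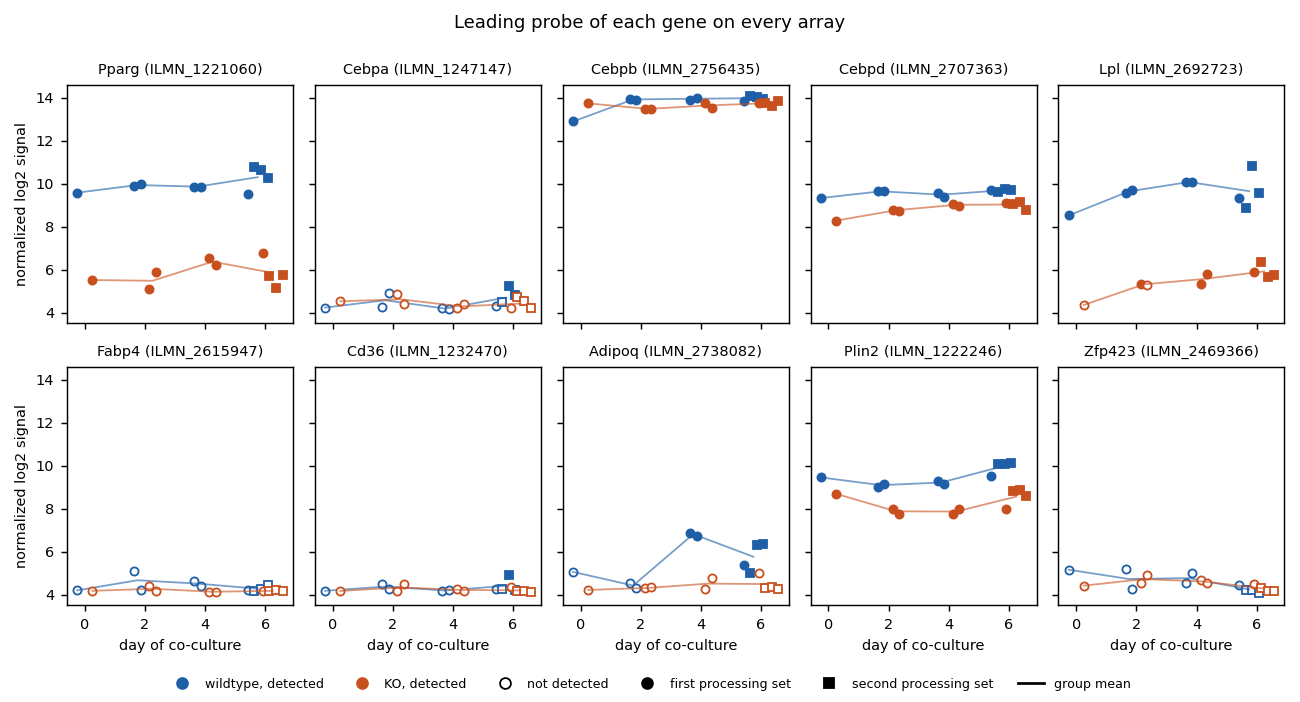
Normalized log2 signal (vertical axis) of the leading probe of each of the 10 genes on each of the 18 arrays against the day of co-culture (horizontal axis). Points are single arrays, open where not detected, squares in the second processing set, and lines join group means. Wildtype points lie above KO points on every day for Pparg, Cebpd, Lpl and Plin2, and at days 2, 4 and 6 for Cebpb. Day 0 has a single array per genotype, and the share of all probes that separate in this way was not counted. Adipoq is filled only in wildtype at days 4 and 6, and Fabp4, Cd36 and Zfp423 stay near 4 to 5.

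Counted over the tested probes, 7 of 9 were lower in KO at day 6 and 0 were higher, against 12.9% lower and 13.9% higher among all 26407 probes tested. Those 7 cover 5 of the 7 tested genes, namely Pparg, Cebpd, Lpl, Adipoq and Plin2. At day 4 there were 5 of 9 lower and 0 higher, against 8.66% and 9.02% of all probes. At day 2 there were 6 lower and 0 higher, against 9.18% and 9.47%. Dim probes passed the filter only through the genotype in which they were detected (both further Pparg probes, Cebpa and Adipoq owe most or all of their detections to wildtype), so these counts describe the probes and do not show that the list as a whole moved. The balance of all calls depended on scaling: with arrays scaled by their median, 37.6% of all called probes were higher in KO at day 4 and 31% at day 2, against 51% and 50.8% with quantile normalization. Member calls then numbered 3 at day 4, without Plin2 (adjusted p = 0.0521) and Pparg ILMN_1221594 (0.168), and 3 at day 2, without Plin2 (0.0601), Pparg ILMN_1221594 (0.0596) and Cebpb (0.384). All 7 calls of day 6 were kept.

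Across time, calls were few. Between day 0 and co-culture, 1 of 9 member probes passed in wildtype (Cebpb), against 3.68% of all probes, and 1 of 9 in KO (Cebpd), against 8.03%. For the difference between the genotypes' responses 1 of 9 passed (Cebpb), against 0.379%. Between day 2 and day 6, with the processing set as a block, limma called 0 member probes in wildtype, in KO and for their difference, where 0.00757%, 0.00379% and 0.00757% of all probes were called. Before adjustment, the lowest limma p of a member probe was 0.0029 in wildtype (Adipoq) and 0.0623 in KO (Cebpd). For the difference between genotypes the lowest were 0.022 for Pparg ILMN_1221594 (-0.93 ± 0.37) and 0.0233 for Adipoq (-1.17 ± 0.47). Both had an adjusted p of 0.66. The share of all probes at such unadjusted values was not counted. The leading Pparg probe in wildtype was at 0.43 ± 0.44 between day 2 and day 6. It was at -0.44 within the first set and at 1.88 without wildtype day 6 replicate 1. The set block is shared by both genotypes, so this value also depends on the KO day 6 arrays, whose omission was not tried for it.

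**Figure D3:**
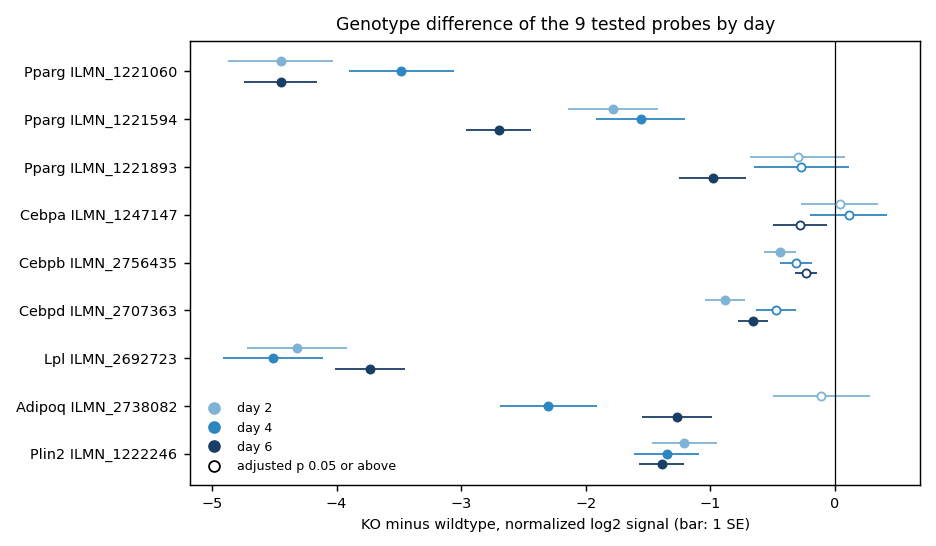
Difference in normalized log2 signal between KO and wildtype (horizontal axis, bar 1 standard error) for the 9 tested probes at days 2, 4 and 6; open points did not pass an adjusted p of 0.05. Pparg and Lpl lie between -3.48 and -4.51 by their leading probes, and Plin2 between -1.21 and -1.39. Cebpb lies between -0.23 and -0.44, filled at day 2 only, and Cebpa between -0.28 and 0.11, open on each day.

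Other genes of the same process were read from 6 lists, each gene by its leading probe. Several genes named below differed by over 1.5 times less at day 6 with the deposited log2 values, without loss of a call: Egr2 was at 1.19, Prdm16 at -0.39, Dlk1 at -6.83, Zfp521 at -1.37, Angptl4 at -2.85, Lrp1 at -0.98, Scarb1 at -0.43, Plin4 at -1.29, Cdh13 at 0.86 and Pdk4 at -1.84. Of 17 tested transcription factors that act with or before Pparg, 3 were lower in KO at day 6, 5 were higher and 9 did not pass, with a median difference of 0.11 (0.02 over all probes, of which 12.9% were lower and 13.9% higher). Krüppel-like factor Klf5, an activator of Pparg, was lower (-1.36 ± 0.17, adjusted p = 2.97e-06), as was the STAT factor Stat5a (-1.02 ± 0.18, adjusted p = 0.000197), and the brown fat regulator Prdm16 was at least 1.79-fold lower (adjusted p = 0.00109). Egr2, also called Krox20, an early inducer of Cebpb, was higher in KO (2.31 ± 0.48, adjusted p = 0.000955), with KO levels of 7.10 to 9.75 and wildtype levels of 5.04 to 7.45 that overlapped.

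Of 13 tested inhibitors of fat cell formation, 4 were lower, 3 higher and 6 did not pass (median -0.28), against 12.9% lower and 13.9% higher among all probes. Dlk1, a transmembrane inhibitor that marks preadipocytes and is silenced as they mature, read 14.69, 14.34, 14.37 and 14.47 in wildtype at day 6 and 4.24, 9.39, 4.42 and 4.32 in KO. Only KO replicate 2 was detected among the 9 KO arrays, and the difference of -8.87 ± 0.72 (adjusted p = 7.36e-09) includes it. Without it KO was at least 957-fold lower. The zinc finger Zfp521, which opposes Zfp423, was lower (-2.95 ± 0.23, adjusted p = 4.72e-09), as was Gata2, a repressor of Pparg (-1.28 ± 0.14, adjusted p = 8.21e-07). The Notch target Hes1 was higher (1.73 ± 0.20, adjusted p = 1.18e-06).

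The list around fatty acid uptake and lipoprotein lipase had the lowest median, -0.63, with 7 of 14 tested genes lower in KO, 3 higher and 4 not passing, against 12.9% and 13.9% of all probes. Angptl4, a secreted inhibitor of lipoprotein lipase and a known target of PPAR receptors, read 10.07 to 11.21 in wildtype and 6.63 to 7.33 in KO (-3.73 ± 0.22, adjusted p = 5.81e-11). The lipoprotein receptor Lrp1 (-1.62 ± 0.30, adjusted p = 0.000315) and the scavenger receptor Scarb1 (-1.47 ± 0.22, adjusted p = 2.95e-05) were lower too. In the other direction, caveolin Cav1, which coats the membrane pits abundant in fat cells, was higher in KO (2.97 ± 0.18, adjusted p = 1.08e-10), with KO levels of 12.70 to 13.03 against 9.16 to 10.47.

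Of 17 tested genes of lipid droplets, triglyceride synthesis and lipolysis, 5 were lower, 3 higher and 9 did not pass (median 0.05), against 12.9% and 13.9% of all probes. The droplet coat gene Plin4 was lower (-2.86 ± 0.35, adjusted p = 2.51e-06), as were the droplet formation gene Fitm2 (-1.30 ± 0.20, adjusted p = 4.21e-05) and Dgat1, an enzyme of the last step of triglyceride synthesis (-1.24 ± 0.19, adjusted p = 4.09e-05). Plin4 was at -0.76 within the first processing set (adjusted p = 0.181). The lysosomal lipase Lipa was higher (2.26 ± 0.26, adjusted p = 1.1e-06).

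Of 8 tested genes of mature fat cells and adiponectin reception, 2 were lower, 1 higher and 5 did not pass (median 0.09), against 12.9% and 13.9% of all probes. The adiponectin receptor Adipor2 was lower (-0.99 ± 0.11, adjusted p = 1.09e-06) and resistin, Retn, was at least 1.43-fold lower (adjusted p = 0.00978, detected on 3 of 4 wildtype arrays and 0 of 4 KO arrays at day 6). Retn levels lay close to the background and met, at 4.47 to 5.49 in wildtype and 4.2 to 4.47 in KO. T-cadherin, Cdh13, which binds adiponectin at the cell surface, was higher in KO (2.36 ± 0.26, adjusted p = 5.37e-07). Among 6 tested genes of other PPAR receptors and fatty acid oxidation, 3 were lower and 1 higher (median -0.14), against the same 12.9% and 13.9%. Pdk4, a kinase that turns fuel use toward fatty acids and a PPAR target, was detected on all 9 wildtype arrays and 0 KO arrays and was at least 13.8-fold lower at day 6 (adjusted p = 4.26e-12). The receptor Ppard was lower (-1.08 ± 0.11, adjusted p = 1.8e-07), the oxidation enzyme Acadvl was at -0.50 ± 0.14 (adjusted p = 0.0103) and its relative Acadl at 0.61 ± 0.18 (adjusted p = 0.0156), both calls lost with median scaling (adjusted p = 0.152 and 0.39). The Acadl call was also lost without wildtype replicate 1 (adjusted p = 0.0539) or replicate 4 (0.0578). Day 6 levels of Acadl overlapped, at 6.77 to 7.5 in wildtype and 7.44 to 7.85 in KO.

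**Figure D4:**
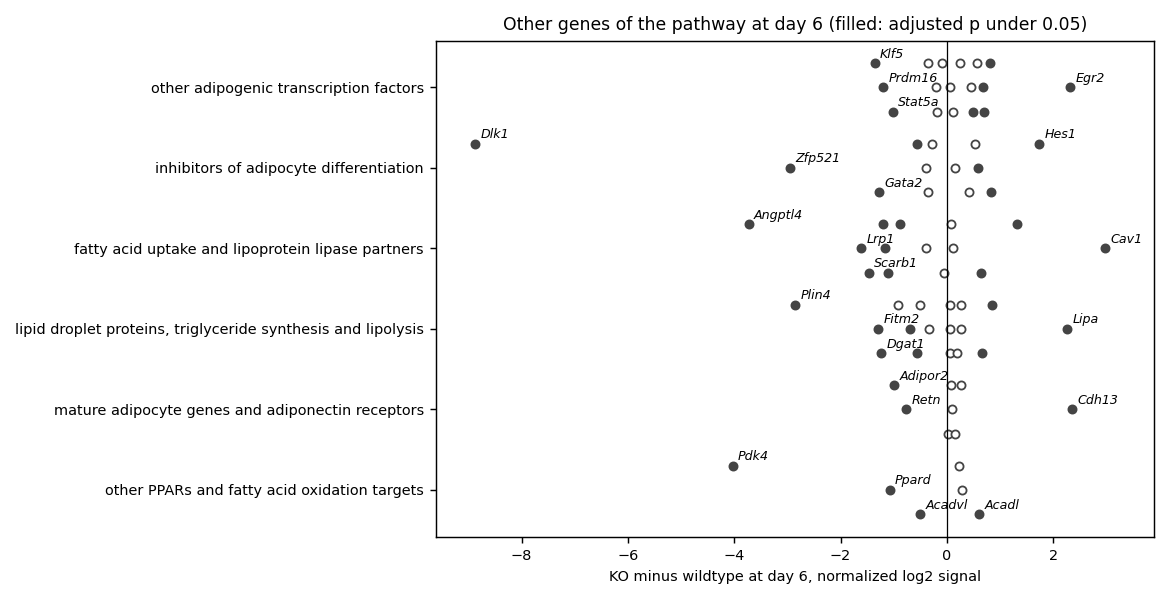
Difference in normalized log2 signal between KO and wildtype at day 6 (horizontal axis) for every tested gene of 6 pathway lists (rows, 1 point per gene, spread vertically for legibility); filled points passed an adjusted p of 0.05, and the genes named in the text are labelled. Dlk1 (-8.87), Pdk4 (-4.03) and Angptl4 (-3.73) lie farthest to the left, and Cav1 (2.97), Cdh13 (2.36) and Egr2 (2.31) farthest to the right.

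The marker lists of adipocytes and preadipocytes share genes with those described above. The summed linear signal of the adipocyte list, which holds Pparg and Lpl themselves, was 1309 to 3757 on wildtype arrays and 244 to 347 on KO arrays, and 7 of its 10 genes with a probe were detected on at least 2 wildtype arrays against 3 on KO arrays. Fabp4 and Plin1 were detected on none. Without the member genes the sum of the 4 that remained overlapped, at 90 to 193 and 79 to 107. The preadipocyte list, which holds Dlk1, summed to 14907 to 29625 in wildtype and 594 to 3517 in KO. At day 6 it had 4 of 6 tested genes lower and 0 higher, against 12.9% lower and 13.9% higher among all probes. Without Dlk1 its sums overlapped, at 1079 to 4758 and 575 to 2845. The summed fibroblast list overlapped between genotypes, at 18599 to 41050 and 13158 to 38694. Its single genes were not all alike: at day 6, 4 of 10 were lower in KO, 2 were higher and 4 did not pass. Levels of Col1a2 spanned 7.44 to 9.1 in wildtype against 4.32 to 5.61 in KO, and those of Thy1 4.98 to 7 against 4.1 to 4.55. Lum reached higher levels in KO (4.72 to 8.85) than in wildtype (4.5 to 5.33), with overlap. The part of these lists in the member differences was not tested.

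For each of the 5 members whose leading probe was detected on at least 9 arrays, the 3 genes most like it over the 18 arrays were taken from 13105 others by Pearson correlation, as a description only, since the arrays share the genotype split. For Pparg they were Col1a2 (r = 0.984), Bag3 (0.983) and Cd59a (0.983). For Lpl they were Serhl (0.980), Zfp429 (0.980) and Nid2 (0.979), for Cebpd Ghr (0.978), Ctsb (0.961) and Etv1 (0.961), and for Plin2 Marveld1 (0.966), Memo1 (0.965) and Tnfrsf1a (0.959). For the Pparg, Lpl and Cebpd neighbours, no KO array overlapped the wildtype range. Cebpb, whose low point was wildtype day 0, was most like Tnks1bp1 (0.895), Bcl3 (0.889) and Fbxo38 (0.886), and the genotype ranges of all 3 overlapped.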

How the data were processed

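The authors deposited a non-normalized table with, by its headers, the mean bead intensity of each probe on each array and a detection p-value, and a matrix of log2 values. By comparison, the deposited log2 values lay within 0.005 of the log2 of quantile-normalized intensities without background subtraction. The scanning and the computation of the detection p-value are not given in the sources used here. On 12 arrays that p-value was 1-sided and on 6 arrays 2-sided by its values, and the latter were converted. These 2 kinds define the processing sets.

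Background correction and quantile normalization used neqc with an offset of 16 (limma 3.58.1, R 4.3.3). A probe was tested if its detection p-value was below 0.01 for 2 or more arrays, which kept 26407 of 45121 (58.5%). The platform annotation gave 1 symbol for 34763 probes, several for 18 and none for 10340. All 18 arrays entered 1 linear model with a coefficient for each of the 8 groups (lmFit, eBayes with an intensity trend). The processing set was a block for day 6 against day 2 only. In the other tests the spread, pooled over the groups, therefore also holds the difference between the sets at day 6. Tests are 2-sided, with Benjamini-Hochberg adjustment over all probes and a threshold of 0.05. The scripts were tested on simulated data. Where no array of a group detected a probe, each of its arrays was given at least the signal of its dimmest detected probe. The resulting fold is a lower bound only on the scale of the reported normalization. That dimmest signal is not a detection limit: it was 4.52 on KO day 2 replicate 2, where Lpl at 5.31 was not detected. With an offset of 50, differences given as bounds were smaller, such as -2.75 for Pdk4 and -0.57 for Prdm16 at day 6. Precision is limited by the number of arrays and by signal over background.

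For statements on a gene the probe with the highest mean signal was used. From each pathway list, up to 4 called genes with the largest day 6 difference were named, with each direction represented where both occurred. The members, pathway lists and marker lists were chosen with earlier results of these data known.

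Deviations from the group mean of same-numbered wildtype and KO arrays correlated at 0.00301 for day 2, at -0.103 for day 4 and at 0.551, 0.114, 0.243 and 0.152 for replicates 1 to 4 of day 6. By the rule that every day 6 pair exceed 0.1 the numbers of day 6 pair the arrays, but replicate 1 stands alone in the first set, and within the second set the values were -0.033, 0.14 and -0.0221. No columns of the table were identical.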

Additional observations from a re-analysis of the deposited data

Results flagged for a closer look

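In groups of 4 arrays, 30 in all over the 15 probes, the gap of the highest or lowest array to its neighbour was compared with the range of the group, and 4 groups exceeded Dixon's 95% critical value, where chance gives about 1 in 20. Wildtype day 6 replicate 3 gave the only detected Cd36 value, 4.90, against at most 4.26 on the other 3 arrays (gap over range 0.976). KO day 6 replicate 1 was the highest of its group for Cd36, at 4.35 against at most 4.16 (0.86), and for Adipoq, at 5.01 against at most 4.35 (0.906), in each case without detection. Wildtype day 6 replicate 1 was the lowest of its group for Plin2, at 9.50 against at least 10.07 (0.896). Both replicates 1 are the day 6 arrays of the first processing set, and the part of the set in these gaps was not tested.

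The response of Cebpb to co-culture differed between genotypes in a direct test, by -1.21 ± 0.20 on the log2 scale (KO minus wildtype, adjusted p = 0.00733 with limma). Adjusted p ranged from 0.00218 to 0.548 over 17 alternatives.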

How the results depend on the processing

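The day 6 calls on Pparg (leading probe), Cebpd, Lpl and Plin2 kept their direction and stayed past the threshold in all 19 alternatives. With median scaling the probes called between genotypes numbered 4293 at day 6 (7079 in the reported analysis), 1922 at day 4 (4667) and 2110 at day 2 (4927), with 3 member probes at day 4 and 3 at day 2. For co-culture they numbered 244 in wildtype (971), 143 in KO (2120) and 16 for the difference (100), with 0 member probes in each, and for day 6 against day 2 they numbered 0 in KO (1) and 1 for the difference (2). Within the first processing set they numbered 4715 at day 6, and for co-culture 3088 in wildtype, 4729 in KO and 1052 for the difference, with 2 member probes in wildtype (Cebpb and Lpl) and 3 in KO (Cebpd, Lpl and Plin2). There, with 1 array per genotype, the day 6 calls on Adipoq (-0.37), Pparg ILMN_1221893 (-0.86), Prdm16 (-0.51), Lrp1 (-0.95), Plin4 (-0.76), Retn (-0.23), Acadl (0.68) and Acadvl (-0.33) were lost.

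The co-culture call on Cebpd in KO was lost, leaving 0 member probes, with the deposited log2 matrix, an offset of 50, no detection filter and no intensity trend. Taking 1 probe per gene gave 1350 co-culture calls in KO, and no count over the 9 member probes, since some of them are left out. For the difference between responses no detection filter gave 330 calls and no intensity trend 63, with 0 member probes. Between day 2 and day 6, wildtype calls (2) numbered 7 with the deposited matrix, 5 without a filter, 10 without the set block, 8 in the first set and 0 without the trend. KO calls (1) numbered 0 with the matrix, an offset of 50, 1 probe per gene or no set block, 5 without a filter and 3 without the trend. Calls on the difference (2) numbered 0 with 1 probe per gene, no set block or the first set alone, and 1 without the trend.

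Leaving out 1 array in turn gave 2959 to 3415 calls at day 4 and 3092 to 3370 at day 2. For co-culture it gave 636 to 703 calls in wildtype, 1241 to 1597 in KO, with 0 member probes, and 57 to 75 for the difference. For day 6 against day 2 it gave 0 to 5 calls in wildtype, 0 to 5 in KO and 0 to 14 for the difference.

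With the replicate number as a block, 7287, 4887 and 5131 probes were called at days 6, 4 and 2, with 7, 5 and 6 member probes as before. The block changed the member calls of co-culture in KO, where Plin2 (-0.93, adjusted p = 0.0351) joined Cebpd for 2 calls. It changed no other member call. Over all probes it left 1 call on the genotype difference between day 6 and day 2, with 0 member probes. Crossing the day 4 numbers, an alternative chosen after seeing the data, gave 5062 calls at day 4 with 6 member probes.

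Uncalled values changed sign as follows. The leading Pparg probe in the difference of co-culture responses (0.09) was at -0.13 with the deposited matrix and with median scaling, -0.04 with an offset of 50 and -0.1 to 0.28 with 1 array left out (lowest without KO day 2 replicate 2), and in wildtype between day 2 and day 6 (0.43) at -0.44 in the first set. Pparg ILMN_1221893 at day 4 (-0.27) ranged from -0.84 to 0.31 with 1 array left out, positive without wildtype replicate 1, and Cebpa at day 2 (0.04) from -0.29 to 0.38, negative without wildtype replicate 1 or KO replicate 1 (-0.19). At day 0, 11 values moved by more than the spread between arrays, such as Pparg from -4.06 to -2.47 with the deposited matrix, which keeps the background. The causes of the other changes were not tested.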
